A study of Mus musculus with 18 samples.

Results

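The genes described here are 41 transcription factors of neuronal and neural crest fate, chosen by a list of names and followed across 6 siRNA treatments of N2A cells, a mouse neuroblastoma line derived from neural crest. They are 41 of the 55414 genes in the count table. Their names were listed in part because Tbr1, Tbx2 and Bhlha15 rose in both knockdowns of these data, so the values of those 3 genes against the control are given as a description with no test. The other 38 members were listed by name and family. After a filter on low counts, 28 of the 41 members were among the 17901 genes tested, and the other 13 are given by their counts.

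Cells were transfected with siRNAs, short double-stranded RNAs that direct degradation of the mRNA they match, and whole-cell RNA was collected after 72 h. Scramble KD cells received a control siRNA, Fmr1 KD cells an siRNA against the mRNA of the RNA-binding protein FMRP, and Zfp598 KD cells an siRNA against the mRNA of a ubiquitin ligase that senses collided ribosomes. Each condition had 2 siRNAs, called A and B here, and each siRNA had 3 libraries (A1 to A3 and B1 to B3), giving 6 libraries per condition and 18 in all. N2A is a tumour cell line, every library came from transfected cells, and the knockdowns were run in triplicate for each siRNA by the account of the study. Whether the triplicates were separate cultures is not given in the labels, so p-values measure the spread between these libraries, which may be technical.

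As background, transcription factors of neural lineages fall into families by their DNA-binding domain. T-box factors bind through the T domain. Tissue-specific basic helix-loop-helix (bHLH) factors pair with ubiquitous E proteins and bind E-boxes, whereas Hes and Hey proteins are bHLH repressors, several of them induced by Notch signalling through the DNA-binding protein RBPJ. SOX factors carry an HMG box, and PAX, ISL, POU and MEIS proteins carry homeodomains. Neuroblastoma arises from the sympathoadrenal lineage of the neural crest, in which Mycn, Isl1, Gata2 and Insm1 are well-known regulators.

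The siRNA targets were lower in their own libraries, Fmr1 with a log2 fold change of -1.43 and Zfp598 with -1.53 against Scramble KD. Between 10 and 11 of 11 markers of noradrenergic neuroblastoma had counts in every library. Total counts ranged from 7674724 to 15414590, and Zfp598 KD A3 and A2 (10856132) were the shallowest, in which a single feature took 25.8% and 15.2% of the counts. Fmr1 KD B1 stood apart with 30124 genes having a count, against 22161 to 26623 in the other libraries. It had counts for 15 of 15 pluripotency markers, against 7 to 10 in the other libraries. These included 34 of Pou5f1 and 102 of Zfp42, where no other library had more than 1. The summed level of these markers was not highest there, with 282 CPM against 294 in Fmr1 KD A1 and 293 in A3.

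The sequence just before the annotated gene start is shown for 5 members whose changes are described below. The windows are the 250 bases before the outermost GENCODE M39 start of each gene on GRCm39, written 5′ to 3′ on the strand of the gene. Tbr1, Tbx2 and Bhlha15 are shown with E-boxes (CANNTG, the same on both strands) in capitals. The Tbr1 window (plus strand, chr2:61633024-61633273) holds 2 of them, the Tbx2 window (plus strand, chr11:85723127-85723376) holds 1 and the Bhlha15 window (plus strand, chr5:144126836-144127085) holds 3.
Tbr1: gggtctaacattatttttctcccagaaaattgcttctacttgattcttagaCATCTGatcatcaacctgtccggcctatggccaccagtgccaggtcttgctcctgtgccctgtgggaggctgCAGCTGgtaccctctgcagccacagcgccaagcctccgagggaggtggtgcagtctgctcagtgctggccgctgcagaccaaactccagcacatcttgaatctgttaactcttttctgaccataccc
Tbx2: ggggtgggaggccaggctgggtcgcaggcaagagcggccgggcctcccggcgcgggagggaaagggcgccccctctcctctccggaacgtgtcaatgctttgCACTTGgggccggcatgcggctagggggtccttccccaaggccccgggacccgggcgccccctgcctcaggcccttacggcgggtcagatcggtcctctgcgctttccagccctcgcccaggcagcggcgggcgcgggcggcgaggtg
Bhlha15: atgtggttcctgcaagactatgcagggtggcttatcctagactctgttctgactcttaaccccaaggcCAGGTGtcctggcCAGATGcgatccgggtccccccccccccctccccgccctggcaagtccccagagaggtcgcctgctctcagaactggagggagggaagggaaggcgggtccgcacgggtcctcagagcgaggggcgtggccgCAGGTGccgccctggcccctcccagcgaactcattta

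Hes5 and Hey2, Notch-responsive repressors in many tissues, are shown with the RBPJ core letters TGGGAA, or TTCCCA on the other strand, in capitals. The Hes5 window (plus strand, chr4:155045123-155045372) holds 2 matches. The Hey2 window (minus strand, chr10:30718829-30719078) holds 1 match.
Hes5: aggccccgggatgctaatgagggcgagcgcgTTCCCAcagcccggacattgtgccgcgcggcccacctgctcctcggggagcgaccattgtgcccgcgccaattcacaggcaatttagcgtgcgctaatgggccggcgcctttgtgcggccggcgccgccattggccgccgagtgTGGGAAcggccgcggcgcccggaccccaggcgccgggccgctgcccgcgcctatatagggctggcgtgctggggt
Hey2: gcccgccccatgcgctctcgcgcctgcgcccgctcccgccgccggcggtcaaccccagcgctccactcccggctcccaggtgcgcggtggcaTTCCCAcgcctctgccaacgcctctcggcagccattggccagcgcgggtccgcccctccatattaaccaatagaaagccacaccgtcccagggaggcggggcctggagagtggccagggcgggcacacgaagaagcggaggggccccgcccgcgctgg

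A match describes letters in a window and not a bound site. E-boxes were found in 24 of 40 member windows (60.0%), against 62.9% of the windows of 12796 tested protein-coding genes. RBPJ core letters were found in 7 of 40 (17.5%), against 22.2% of the same background. The motifs do not overlap one another, and the window of Tcf4 was not analysed here.

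N2A cells carried a broad set of these factors at uneven levels. Levels between genes are compared per kilobase of exon (RPKM), as mean ± SD over the 6 Scramble KD libraries. Sox4, a SOX factor of progenitors and immature neurons, stood far above the others at 86.7 ± 12.3 RPKM, rank 229 of the 17901 genes. Gata2 (14.9 ± 3.67), Myt1 (12.7 ± 3.35), Insm1 (12.4 ± 2.10), Mycn (12.04 ± 2.999), Sox11 (11.4 ± 0.569) and Tcf4 (11.3 ± 0.972) followed, and the ranges of neighbours in this order overlapped. Gata2 and Insm1 are zinc finger factors of sympathoadrenal and neuroendocrine differentiation, Myt1 is a zinc finger factor of neuronal differentiation, and Mycn is the oncogene amplified in aggressive neuroblastoma.

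The middle of the order held Tcf3, Sox9, Hes6, Isl1, Hey1, Rest, Tcf12, Tbx20 and Tbx2, from 9.48 down to 4.74 RPKM, and then Meis2, Meis1 and Pou4f1 near 3.55. The lowest Pou4f1 library lay above the highest Hes5 library (1.54 ± 0.439 RPKM), which marked a gap in the order. Tbx4, Pax6, Zic2, Zic1 and Hey2 lay between 1.02 and 0.518 RPKM. Bhlha15 (0.190 ± 0.0715), Eomes (0.161 ± 0.0775) and Tbr1 (0.0368 ± 0.0258) were the lowest tested members, at ranks 17191, 17344 and 17798 of 17901. The filter used the counts of all conditions, so the set of tested members does not follow the Scramble KD level alone. Sox10 (0.110), Hes1 (0.0967) and Tlx2 (0.0713 RPKM) were not tested, although their Scramble KD means were above that of Tbr1.

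**Figure D1:**
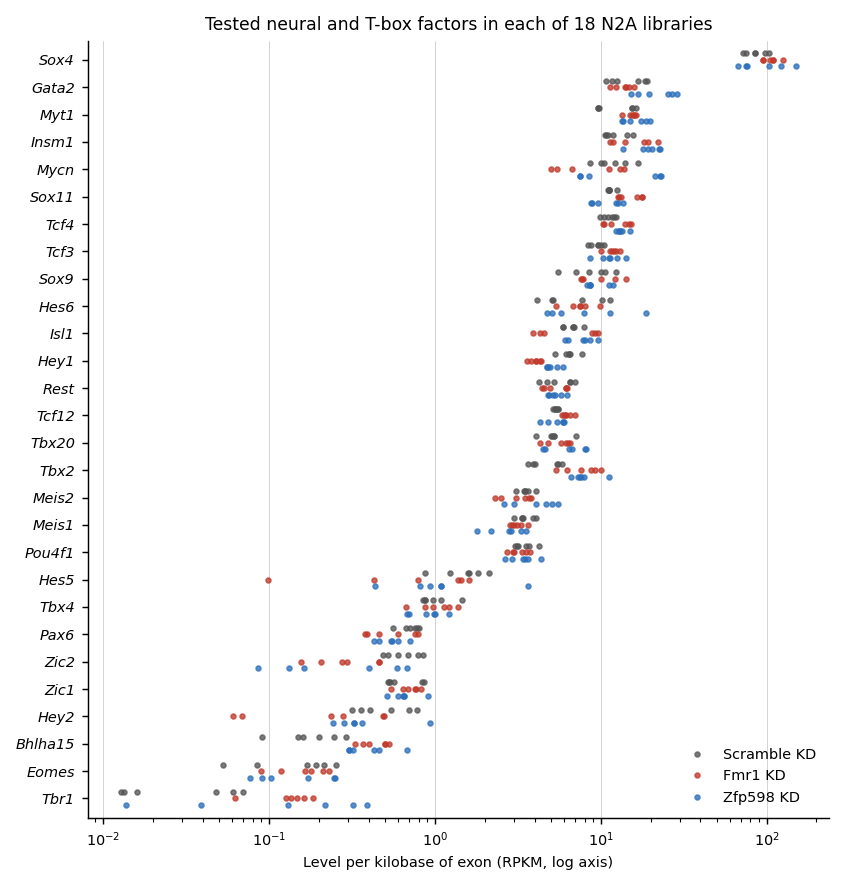
Level of the 28 tested members in each library, in RPKM on a log axis, with 1 point per library and colours for the 3 conditions. Sox4 sits near 86.7 RPKM in Scramble KD, and Tbr1 lies at the foot of the order near 0.0368.

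The 13 members without enough counts for a test were 6 tissue-specific bHLH genes (Neurod1, Neurod2, Neurod4, Neurog2, Nhlh1 and Nhlh2), Hes1, Sox2, Sox10, Pou3f1, Pou3f2, Tlx2 and Tbx3. Proneural and neuronal bHLH factors such as Neurod1 and Neurog2 drive neuron formation, and none of these 6 exceeded 9 counts in any library. Pou3f2 had 0 of 235386351 counts over all 18 libraries, which allows up to 0.0127 CPM (counts scaled to library size) by counting error alone. Sox2 and Tbx3, which are used by pluripotent cells among others, were counted mainly in Fmr1 KD B1. Sox2 had 25 counts there and at most 1 in any other library, and Tbx3 had 79 counts there and at most 5 elsewhere. This is the library with counts for all the pluripotency markers listed, and the part of those transcripts in the Sox2 and Tbx3 counts was not tested.

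Tbr1, Tbx2 and Bhlha15 are described first, since the list was built around them. Tbr1, a T-box factor of glutamatergic neurons in the developing cortex (chr2:61633274-61644458, plus strand), was at the edge of detection. Its Scramble KD libraries had 1, 5 and 1 counts for siRNA A and 4, 1 and 6 for siRNA B. Fmr1 KD libraries had 15, 12 and 12 counts for siRNA A and 11, 10 and 5 for siRNA B. Zfp598 KD libraries had 1, 2 and 4 counts for siRNA A and 16, 22 and 25 for siRNA B. Thus the Zfp598 KD counts came mainly from siRNA B, and the libraries of both knockdowns overlapped those of Scramble KD. In bulk RNA, a change in the number of cells that carry a transcript and a change in its amount per cell cannot be told apart.

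In CPM, which uses TMM-scaled library sizes, Tbr1 lay at 0.0881, 0.331 and 0.0708 for Scramble KD siRNA A and 0.263, 0.0730 and 0.384 for siRNA B. Fmr1 KD gave 1.01, 0.815 and 0.888 CPM for siRNA A and 0.742, 0.700 and 0.343 CPM for siRNA B, and Zfp598 KD gave 0.0752, 0.213 and 0.712 CPM for siRNA A and 1.19, 1.76 and 2.13 CPM for siRNA B. The log2 fold change against Scramble KD was 1.80 (SE 0.59) in Fmr1 KD and 2.26 (SE 0.58) in Zfp598 KD. As the mean of both siRNAs in a model with 6 groups, the Zfp598 KD value was 1.65.

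Tbx2, a T-box repressor of cell cycle inhibitors (chr11:85723377-85734115, plus strand), was well measured. Scramble KD libraries had 28.1, 28.4 and 29.9 CPM for siRNA A and 18.8, 20.7 and 20.1 CPM for siRNA B. Fmr1 KD libraries had 32.2, 27.6 and 39.2 CPM for siRNA A and 44.99, 47.2 and 51.8 CPM for siRNA B, and Zfp598 KD libraries had 38.5, 40.8 and 57.8 CPM for siRNA A and 33.9, 39.3 and 37.7 CPM for siRNA B. All Zfp598 KD libraries lay above all Scramble KD libraries, whereas Fmr1 KD A2 lay within the Scramble KD range. The log2 fold changes were 0.73 (SE 0.16) and 0.76 (SE 0.16).

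Bhlha15, also known as Mist1, is a bHLH factor of secretory cells (chr5:144127086-144131259, plus strand) and was the only tissue-specific bHLH member with enough counts for a test. It passed the filter on low counts mainly through the knockdown libraries, in which it was chosen as high. Scramble KD had 5 to 14 counts, Fmr1 KD 17 to 26 and Zfp598 KD 6 to 32. Scramble KD libraries had 0.705, 0.861 and 0.566 CPM for siRNA A and 0.527, 1.02 and 0.320 CPM for siRNA B. Fmr1 KD libraries had 1.76, 1.15 and 1.85 CPM for siRNA A and 1.75, 1.40 and 1.30 CPM for siRNA B, and Zfp598 KD libraries had 1.13, 1.07 and 1.07 CPM for siRNA A and 2.38, 1.52 and 1.62 CPM for siRNA B. Every knockdown library exceeded every Scramble KD library. The log2 fold changes were 1.20 (SE 0.28) and 1.16 (SE 0.28), on 5 to 32 counts per library.

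**Figure D2:**
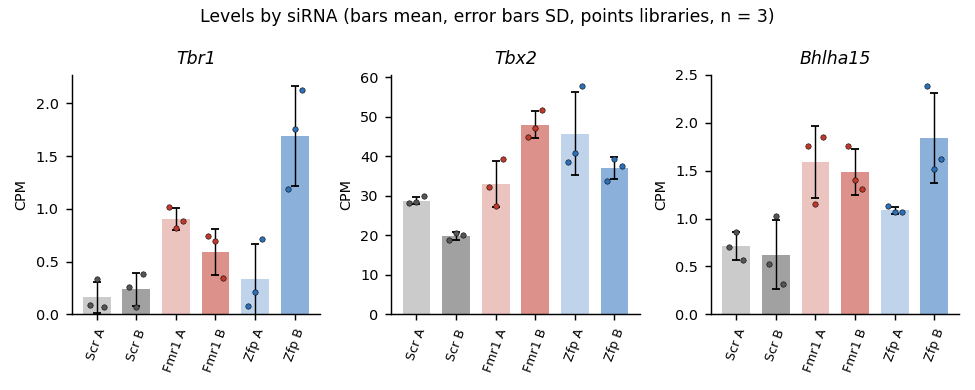
Levels of Tbr1, Tbx2 and Bhlha15 in CPM for each siRNA (Scr, Scramble KD; Fmr1, Fmr1 KD; Zfp, Zfp598 KD; A and B, the siRNAs), with bars at the mean, error bars of 1 SD and 1 point per library (n = 3). Tbr1 reaches 1.19, 1.76 and 2.13 CPM with Zfp598 KD siRNA B, and Tbx2 is lowest with Scramble KD siRNA B.

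When the knockdowns were set against each other, none of the 3 genes passed the test. They were chosen for a rise in both knockdowns of these same libraries. That choice favours a small difference between the knockdowns, so this comparison cannot decide whether they rose equally. The log2 differences of Fmr1 KD from Zfp598 KD were -0.47 for Tbr1 (edgeR adjusted p = 0.631), -0.02 for Tbx2 (edgeR adjusted p = 0.956) and 0.04 for Bhlha15 (edgeR adjusted p = 0.956). Their SEs were 0.49, 0.16 and 0.26.

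Among the other T-box members, Tbx4 and Tbx20, known for limb and heart development, and Eomes, a factor of intermediate neural progenitors, did not pass the test in either knockdown. Their log2 fold changes were 0.03, 0.10 and 0.01 in Fmr1 KD, with SEs of 0.19, 0.16 and 0.37. In Zfp598 KD they were -0.14, 0.28 and -0.07, with SEs of 0.20, 0.16 and 0.39. Of 11 other T-box genes, 3 were tested (Tbx1 and Mga among them), and 0 were called in either knockdown by edgeR, with 0 and 1 at an unadjusted p under 0.05.

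The comparison with Scramble KD asked which factors changed when FMRP or ZNF598 was depleted. A gene was called when its adjusted p was under 0.05 in the quasi-likelihood test of edgeR, after the Benjamini-Hochberg correction for all 17901 genes. Of the 25 tested members other than Tbr1, Tbx2 and Bhlha15, 1 was higher (Sox11) and 1 was lower (Hey1) in Fmr1 KD, against 2.73% of all genes higher and 3.80% lower. In Zfp598 KD 1 was higher (Insm1) and 0 were lower, against 0.916% and 1.04% of all genes. At an unadjusted p under 0.05 the counts were 7 of 25 in Fmr1 KD and 9 of 25 in Zfp598 KD, against 21.6% and 18.1% of all genes, and 3 and 4 of them were lower. DESeq2 called 5 and 3, against 9.92% and 5.43% of all genes. When counts were summed per siRNA, with 2 values per condition, edgeR called 0 of all genes in both comparisons, with 725 and 454 at an unadjusted p under 0.05, so none of the calls named here was kept. The median log2 fold change of the 25 was 0.01 in Fmr1 KD and 0.06 in Zfp598 KD, beside 0.00 and 0.01 for all genes. Both comparisons use the same Scramble KD libraries.

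Hey1, a Hes-related repressor downstream of Notch (chr3:8726956-8732385, minus strand), was lower in Fmr1 KD. Scramble KD libraries had 36.9, 25.3 and 29.8 CPM for siRNA A and 30.9, 30.8 and 31.2 CPM for siRNA B. Fmr1 KD libraries had 21.02, 18.3 and 19.6 CPM for siRNA A and 19.6, 20.8 and 17.4 CPM for siRNA B, all below every Scramble KD library. Zfp598 KD libraries had 22.9, 28.5 and 26.2 CPM for siRNA A and 23.1, 22.9 and 23.8 CPM for siRNA B, between the others and overlapping Scramble KD. Hey1 fell in Fmr1 KD (log2 fold change -0.66, SE 0.10, edgeR adjusted p = 5.29e-04), and in Zfp598 KD its value was -0.33 (SE 0.10, edgeR adjusted p = 0.0845). Fmr1 KD against Zfp598 KD gave -0.33 (edgeR adjusted p = 0.0557). The Fmr1 KD call was kept when each library was left out in turn, with log2 fold changes of -0.71 to -0.60.

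Sox11, a SOX factor of newborn neurons and sympathetic precursors (chr12:27384263-27392573, minus strand), was higher in Fmr1 KD. Its Scramble KD libraries had 93.4, 105 and 93.1 CPM for siRNA A and 92.8, 92.4 and 93.1 CPM for siRNA B. Fmr1 KD libraries had 106, 108 and 110.4 CPM for siRNA A and 139, 148 and 148 CPM for siRNA B, so every Fmr1 KD library lay above every Scramble KD library and siRNA B lay highest. Zfp598 KD libraries had 79.8, 72.5 and 74.2 CPM for siRNA A and 104, 113 and 106 CPM for siRNA B, below Scramble KD for siRNA A and near or above its highest values for siRNA B. The change in Fmr1 KD was modest (log2 fold change 0.41, SE 0.12, edgeR adjusted p = 0.0441). The call was lost when any Scramble KD library, Fmr1 KD A3 or any Fmr1 KD siRNA B library was left out, 10 of 18 cases, with log2 fold changes of 0.36 to 0.46 and adjusted p of at most 0.0952 by edgeR.

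Insm1, a zinc finger factor of neuroendocrine and sympathoadrenal differentiation (chr2:146063841-146066940, plus strand), was higher in Zfp598 KD. Scramble KD libraries had 48.4, 36.6 and 44.8 CPM for siRNA A and 33.04, 33.4 and 34.5 CPM for siRNA B. Zfp598 KD libraries had 42.4, 56.1 and 70.6 CPM for siRNA A and 63.3, 69.5 and 59.7 CPM for siRNA B, and A1 was the only one within the Scramble KD range. Fmr1 KD libraries had 37.04, 35.1 and 43.7 CPM, within that range, and 56.5, 60.1 and 68.9 CPM, above it. The change in Zfp598 KD was 0.65 on the log2 scale (SE 0.16, edgeR adjusted p = 0.0428). The call was lost in 10 of 18 cases, when Scramble KD A2, any Scramble KD siRNA B library, Fmr1 KD A3 or B1, Zfp598 KD A3 or any Zfp598 KD siRNA B library was left out, with log2 fold changes of 0.60 to 0.73.

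Two-sided exact permutation tests of 6 libraries against 6 were run on the members named here, most of which were named because edgeR called them in the same libraries, so their p-values describe how far the libraries separate and add no support. The exact p was 0.00216, the smallest such a test can give, for Hey1 and for Sox11 in Fmr1 KD, and 0.00649 for Insm1 in Zfp598 KD. Between the knockdowns the exact p was 0.0195 for Sox11 and 0.00433 for Gata2. Values as small were found where edgeR made no call. The exact p was 0.00216 for Zic2 in Fmr1 KD, 0.00649 for Hey1 in Zfp598 KD and 0.00216 for Hey1 between the knockdowns.

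Zic2, a zinc finger factor of the dorsal neural tube and neural crest, had the largest shift among members that did not pass the test. Its Scramble KD libraries had 2.38, 2.05 and 1.91 CPM for siRNA A and 2.70, 3.14 and 3.32 CPM for siRNA B. Fmr1 KD libraries had 1.08, 0.611 and 0.814 CPM for siRNA A and 1.82, 1.82 and 1.17 CPM for siRNA B, all below the Scramble KD libraries. Zfp598 KD libraries had 1.58, 2.35 and 2.67 CPM for siRNA A and 0.521, 0.640 and 0.341 CPM for siRNA B, overlapping Scramble KD for siRNA A only. The log2 fold changes were -1.08 (edgeR adjusted p = 0.0822) and -1.05 (edgeR adjusted p = 0.148).

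Directly between the knockdowns, 1 of 28 members was higher in Fmr1 KD (Sox11) and 1 was lower (Gata2), against 2.27% of all genes higher and 3.11% lower. Sox11 differed by 0.46 on the log2 scale (SE 0.12, edgeR adjusted p = 0.0288), a call lost without any 1 library of Fmr1 KD siRNA B or Zfp598 KD siRNA A, with differences of 0.40 to 0.53. It was also lost with Zfp598 KD A2 and A3 left out together (0.32, edgeR adjusted p = 0.103). With counts summed per siRNA neither this call nor that of Gata2 was kept. Gata2 differed by -0.69 (SE 0.17, edgeR adjusted p = 0.0195). Its Fmr1 KD libraries had 114, 119 and 128 CPM for siRNA A and 91.5, 99.6 and 112 CPM for siRNA B. Zfp598 KD libraries had 122, 134 and 157 CPM for siRNA A and 216, 233 and 205 CPM for siRNA B, so siRNA B held the highest values and siRNA A overlapped Fmr1 KD.

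Each knockdown siRNA was also set against the mean of both Scramble siRNAs. These changes are given with no test, since they share the Scramble KD libraries. Tbr1 had log2 fold changes of 2.09 and 1.49 for Fmr1 KD siRNAs A and B, and of 0.32 and 2.98 for those of Zfp598 KD. Tbx2 had 0.46 and 1.00, then 0.92 and 0.63. Bhlha15 had 1.25 and 1.16, then 0.72 and 1.47. The Tbr1 values were the most uneven of the 3.

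Hey1 had -0.65 and -0.68 for the Fmr1 KD siRNAs and -0.26 and -0.41 for those of Zfp598 KD. Hes5, a Notch target of neural progenitors, had -1.77 and -0.05, then 0.21 and -1.07. Hey2 had -1.99 and -0.23, then 0.16 and -0.67. Mycn had -1.05 and 0.10, then 0.91 and -0.60, opposite signs for the Zfp598 KD siRNAs. Gata2 had 0.04 and -0.21, then 0.23 and 0.90, highest for siRNA B of Zfp598 KD.

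**Figure D3:**
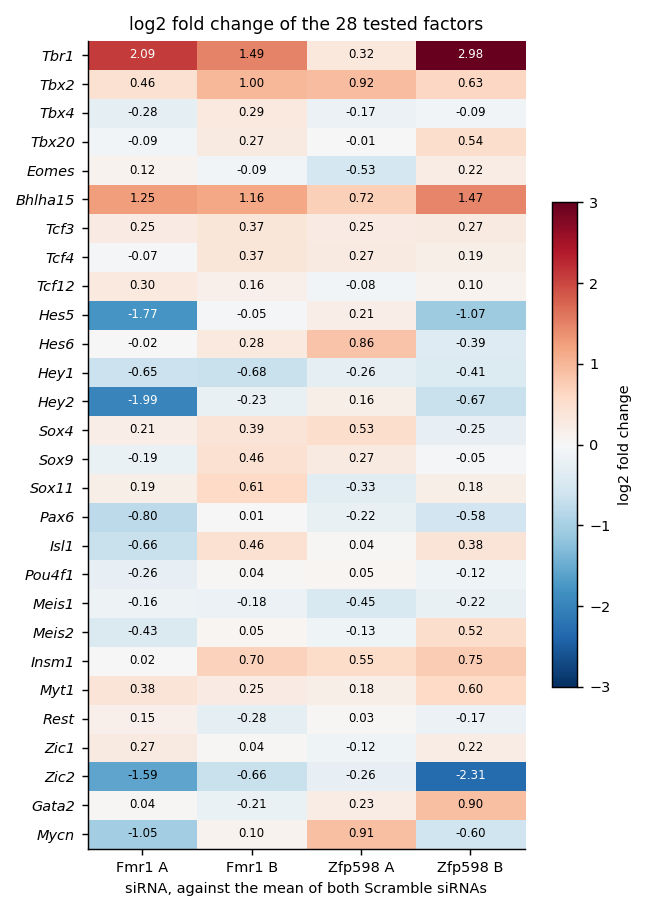
log2 fold changes of the 28 tested members for each knockdown siRNA against the mean of both Scramble KD siRNAs, with rows by family, columns for the 4 siRNAs, colour and printed number both showing the log2 fold change. Tbr1 ranges from 0.32 to 2.98, and Hey1 from -0.68 to -0.26.

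The siRNAs of a condition were then compared with each other, which measures the spread pooled within a condition. The choice of members did not use this contrast, but Tbr1, Tbx2 and Bhlha15 were chosen by values of the same libraries. With Scramble KD, siRNA B differed from siRNA A for 7 of 28 members, 2 higher (Rest and Mycn) and 5 lower (Tbx2, Hes6, Sox9, Myt1 and Gata2), against 10.4% of all genes higher and 12.2% lower. Rest, the repressor of neuronal genes outside neurons, was higher by 0.50 on the log2 scale, with 41.3, 45.8 and 50.6 CPM for siRNA A and 63.7, 67.6 and 63.4 CPM for siRNA B. Mycn was higher by 0.42 (edgeR adjusted p = 0.0432), with 56.3, 46.2 and 39.8 CPM for siRNA A and 64.6, 77.7 and 48.6 CPM for siRNA B. Rest libraries did not overlap, whereas Mycn libraries did, and the Mycn call was lost in 11 of 18 cases with 1 library left out, with log2 fold changes of 0.25 to 0.58. The libraries concerned were Scramble KD A2, A3, B1 and B2, Fmr1 KD A1, B2 and B3, and Zfp598 KD A2, B1, B2 and B3.

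The members lower with Scramble KD siRNA B did not overlap between the siRNAs. Neither did some members that were not called, namely Insm1 (lower) and Hey2 and Zic2 (higher). The share of all genes without overlap was not counted, here or in the other comparisons, so such statements only describe the libraries. Myt1 changed by -0.70 (edgeR adjusted p = 1.68e-06), with 112, 111 and 118 CPM for siRNA A and 69.2, 69.8 and 70.4 CPM for siRNA B. Gata2 changed by -0.64 (edgeR adjusted p = 8.34e-05), with 148, 154 and 136 CPM for siRNA A and 86.95, 100.4 and 93.4 CPM for siRNA B. Hes6, an inhibitor of Hes1 that favours neuronal differentiation, changed by -1.01 (edgeR adjusted p = 0.00287), with 32.6, 22.1 and 29.2 CPM for siRNA A and 14.9, 14.7 and 11.8 CPM for siRNA B. Sox9, a factor of neural crest and glia, changed by -0.65 (edgeR adjusted p = 0.00308), with 44.1, 51.9 and 42.1 CPM for siRNA A and 29.8, 35.8 and 22.9 CPM for siRNA B. Tbx2 changed by -0.53 (edgeR adjusted p = 0.00842). It was chosen by its rise over these Scramble KD libraries, so this p-value is no support for the difference. In the same comparison 7 of 17 tested neuronal differentiation genes were lower and 1 was higher, among them Tubb3, neuronal tubulin (log2 fold change -0.71, edgeR adjusted p = 1.67e-06).

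With Fmr1 KD, siRNA B differed from siRNA A for 13 of 28 members, 12 higher (Tbx2, Tcf4, Hes5, Hey2, Sox9, Sox11, Pax6, Isl1, Meis2, Insm1, Zic2 and Mycn) and 1 lower (Rest), against 13.3% of all genes higher and 11.1% lower. The median of the members was 0.33 on the log2 scale, beside 0.00 for all genes. Hey2 was higher by 1.76 (SE 0.48, edgeR adjusted p = 0.00967), with 0.338, 1.15 and 0.296 CPM for siRNA A and 2.43, 2.38 and 1.37 CPM for siRNA B. Hes5 was higher by 1.72 (SE 0.52, edgeR adjusted p = 0.0192), with 1.08, 0.136 and 0.592 CPM for siRNA A and 1.89, 1.96 and 2.20 CPM for siRNA B. Both genes were low, and neither overlapped between the siRNAs. Without 1 library the Hey2 call was lost for A1 and A3 and the Hes5 call for A2, A3 and B3, with log2 fold changes from 1.46 to 2.66 for Hey2 and from 1.25 to 2.47 for Hes5 over all 18 cases.

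Mycn was higher by 1.15 (edgeR adjusted p = 1.14e-05), with 25.3, 23.1 and 31.2 CPM for siRNA A and 51.9, 60.6 and 63.6 CPM for siRNA B. Isl1, a LIM homeodomain factor of sensory and sympathetic neurons, was higher by 1.11 (edgeR adjusted p = 1.75e-06), with 15.5, 17.2 and 18.1 CPM for siRNA A and 35.1, 38.02 and 36.7 CPM for siRNA B. Rest changed by -0.43 (edgeR adjusted p = 0.00120), with 60.1, 60.3 and 61.1 CPM for siRNA A and 47.7, 42.8 and 44.1 CPM for siRNA B. None of the 3 overlapped between the siRNAs, and neither did members not called, such as Myt1 and Gata2. Without Fmr1 KD B1, the library with counts for all the pluripotency markers listed, 12 members were called, all 12 of them among the 13. Without Fmr1 KD A3, 9 were called. The share of all genes called was not counted in these settings, so a change in the members cannot be told from one in all calls.

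Markers of other cells moved in the same comparison. Of 6 markers of cortical glutamatergic neurons, 4 were tested and 3 were higher with Fmr1 KD siRNA B (Slc17a7, Fezf2 and Camk2a), and their summed level was 62.8 to 70.3 CPM with siRNA B and 47.8 to 60.2 with siRNA A. Slc17a6 had 0 counts in every library, and Bcl11b had counts in Fmr1 KD B1 only. Of 9 Schwann cell and glial markers, 5 were tested and 2 were higher (Mbp and Mog), with sums of 55.7 to 60.1 CPM against 41.7 to 48.1. Mog had 53, 17 and 11 counts in B1, B2 and B3, and 5, 5 and 11 in A1, A2 and A3, so B1 held most of its counts. Foxd3 and Aqp4 had 1 count each in Fmr1 KD B1 and were at 0 elsewhere. Their part in the change of the members was not tested.

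Such markers moved in the other comparisons as well. Of 9 fibroblast markers, 3 were tested, Pdgfrb was lower in both knockdowns and Pdgfra was higher in Fmr1 KD, and Lum was at 0 in every library. The summed level was 29.1 to 41.2 CPM in Scramble KD libraries, 26.9 to 31.6 CPM after knockdown of Fmr1, and 20.3 to 39.1 CPM after that of Zfp598. With Scramble KD siRNA B, Col1a1, Pdgfra, Mbp and Camk2a were lower, and Erbb3 was lower in Fmr1 KD than in Zfp598 KD. With Zfp598 KD siRNA B, the cortical markers Slc17a7 and Camk2a and the fibroblast markers Col1a1 and Pdgfrb were lower, 2 of 4 and 2 of 3 tested, and Tbr1 was higher. Their part in the results was not tested.

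With Zfp598 KD, siRNA B differed from siRNA A for 11 of 28 members, 7 higher (Tbr1, Tbx20, Sox11, Isl1, Meis2, Myt1 and Gata2) and 4 lower (Hes6, Sox4, Zic2 and Mycn), against 15.6% of all genes higher and 19.7% lower. Tbr1 was higher by 2.66 (SE 0.60, edgeR adjusted p = 0.00181), with the values given above that do not overlap. Tbr1 was chosen by its rise in Zfp598 KD, and it passed the filter on low counts partly through these high siRNA B libraries. Its p-value is therefore no support for the difference, and its call should not be weighed when the 11 of 28 is set beside all genes. The log2 fold change of Tbr1 was 2.02 without Zfp598 KD A1, 3.58 without A3 and 4.35 with A2 and A3 left out together. Gata2 was higher by 0.67 (edgeR adjusted p = 3.92e-05) and Myt1 by 0.41 (edgeR adjusted p = 3.75e-04), the genes that were lower with Scramble KD siRNA B. The Myt1 values were 98.7, 97.5 and 108 CPM for siRNA A and 142, 126 and 136 CPM for siRNA B.

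Meis2, a TALE homeodomain partner of other homeodomain factors, was higher by 0.64 (edgeR adjusted p = 9.90e-04), with 52.6, 38.7 and 33.8 CPM for siRNA A and 71.3, 65.9 and 60.8 CPM for siRNA B. Mycn changed by -1.51 (edgeR adjusted p = 5.62e-07), with 97.9, 105 and 107 CPM for siRNA A and 34.8, 39.1 and 34.4 CPM for siRNA B. Zic2 changed by -2.05 (edgeR adjusted p = 2.04e-04) on low values. Mycn and Zic2 did not overlap between the siRNAs, and neither did Hes5, Sox9 and Pax6, which were not called. Hes6 changed by -1.25 (edgeR adjusted p = 3.62e-04), with 22.9, 32.8 and 53.9 CPM for siRNA A and 13.7, 16.5 and 14.6 CPM for siRNA B. Sox4 changed by -0.78 (edgeR adjusted p = 4.43e-05), with 497, 584 and 719 CPM for siRNA A and 322, 359 and 363 CPM for siRNA B.

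The shallow libraries, Zfp598 KD A2 and A3, enter this comparison. In A3 the levels of Hes6, Sox4, Insm1, Tbx2, Mycn, Tcf3, Hes5 and Pou4f1 were the highest of all 18 libraries. In A2 and A3 the summed level of the neuroblastoma markers was 3638 and 4405 CPM, against 1552 to 3339 in the others. Most of these sums came from Prph, with 24057 and 17923 counts in A2 and A3, so they do not describe the markers as a set. With A2 and A3 left out together, A1 was the only library of this siRNA that remained, so effect sizes alone are given. The log2 fold change was then -0.60 for Hes6 and 0.35 for Meis2. Both were smaller in size than with all libraries (-1.25 and 0.64).

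**Figure D4:**
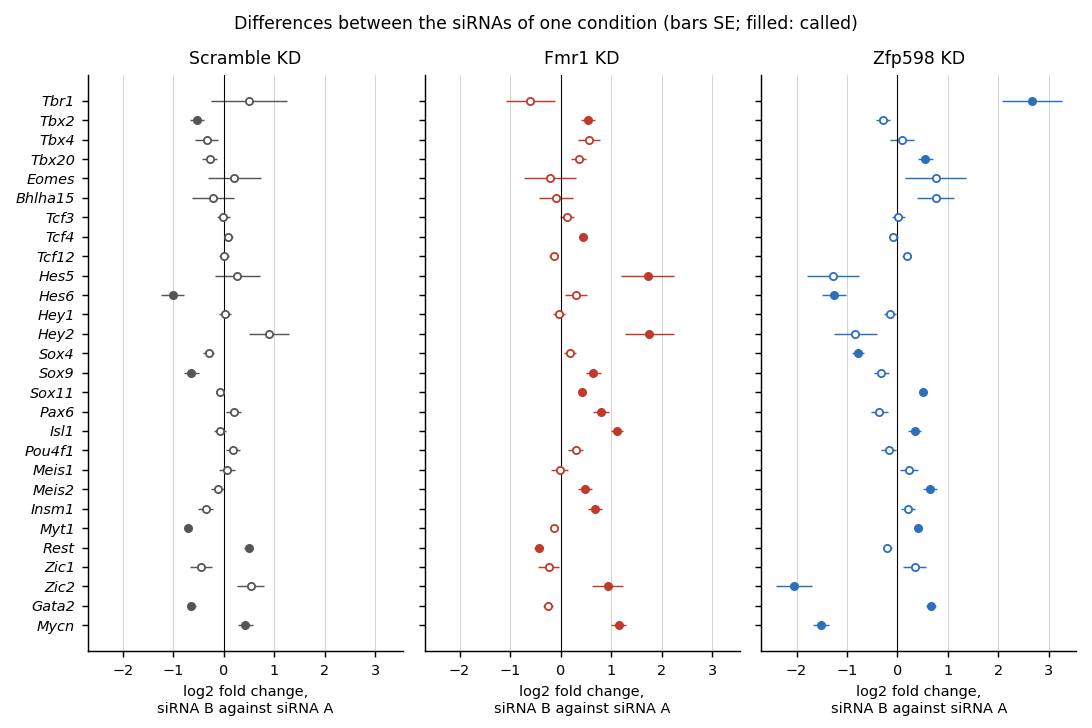
Difference between siRNA B and siRNA A of the same condition for the 28 tested members, as log2 fold change with bars of 1 SE, 1 panel per condition, with filled points for members called. The Fmr1 KD panel has 12 filled points to the right of 0 and 1 to the left, and Mycn lies to the right at 1.15 in Fmr1 KD and to the left at -1.51 in Zfp598 KD.

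The difference between the knockdown effects of siRNAs B and A was tested as an interaction with the Scramble siRNAs in the 25 members other than Tbr1, Tbx2 and Bhlha15. The letters only name the siRNAs, so the test was run with Scramble siRNAs of the same letter and again with the 2 exchanged, and a difference was counted when it passed in the same direction both ways. That held for 5 of 25 members in Fmr1 KD, against 4.82% of all genes, and for 5 of 25 in Zfp598 KD, against 7.42%. With the same letters alone 14 and 10 members passed, and with the letters exchanged 10 and 8. The shares of all genes were not counted for either pairing alone.

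The 5 in Fmr1 KD, Tcf4, Sox11, Pax6, Isl1 and Mycn, were higher with siRNA B. Isl1 differed by 1.19 on the log2 scale (edgeR adjusted p = 4.79e-05) and by 1.04 with the letters exchanged (edgeR adjusted p = 1.85e-04). In Zfp598 KD, Sox11 and Meis2 were higher and Sox4, Zic2 and Mycn lower with siRNA B. Mycn differed by -1.94 (edgeR adjusted p = 2.08e-06) and by -1.09 with the letters exchanged (edgeR adjusted p = 4.76e-04). Both interactions use the same difference between the Scramble KD siRNAs.

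**Figure D5:**
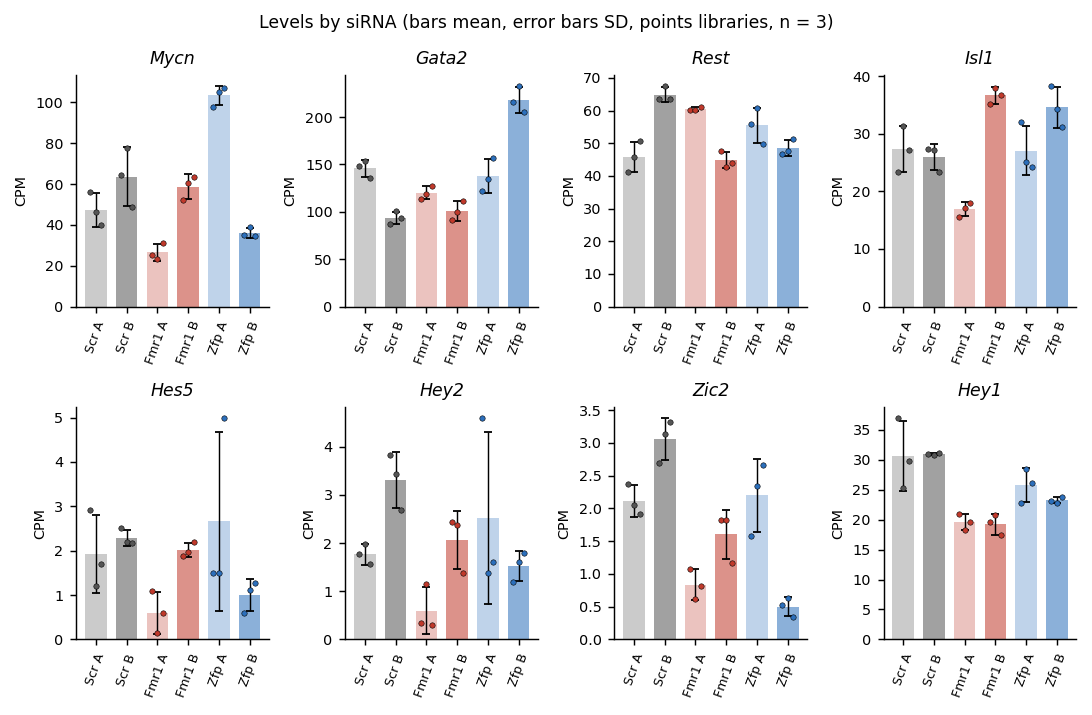
Levels of 8 members in CPM for each siRNA (Scr, Scramble KD; Fmr1, Fmr1 KD; Zfp, Zfp598 KD), with bars at the mean, error bars of 1 SD and 1 point per library (n = 3). Mycn is highest with Zfp598 KD siRNA A (97.9, 105 and 107 CPM) and Gata2 with Zfp598 KD siRNA B (216, 233 and 205 CPM), whereas Hey1 differs mainly by condition.

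The spread of each member over the 18 libraries was divided into parts between conditions, between siRNAs of a condition and between libraries of an siRNA, on the log2(CPM + 0.5) scale. The median shares over the 25 tested members other than Tbr1, Tbx2 and Bhlha15 were 21.7% between conditions, 46.6% between siRNAs and 20.95% between libraries, and over all genes tested they were 18.3%, 38.3% and 35.4%. Hey1 had the highest share between conditions of these 25 (81.7%). Rest (84.5%), Isl1 (78.8%) and Mycn (75.6%) had the highest shares between siRNAs. Eomes, at 3 to 16 counts per library, varied mainly between libraries (91.2%).

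Genes that act with these factors were counted from lists. Id genes encode inhibitors that bind E proteins and keep bHLH factors off DNA. Of 4 Id genes, Id3 was called higher in Fmr1 KD (log2 fold change 1.76, edgeR adjusted p = 2.27e-05) and in Zfp598 KD (log2 fold change 1.36, edgeR adjusted p = 0.00109). The study had already reported this rise of Id3 from the same libraries, so these p-values are no new support. The E proteins Tcf3, Tcf4 and Tcf12 were called in neither knockdown. Of 7 tested neuroblastoma regulatory genes, Lmo3 was higher in Fmr1 KD (log2 fold change 1.21, edgeR adjusted p = 0.0232) and Gata3 in Zfp598 KD (log2 fold change 0.57, edgeR adjusted p = 0.0188). Of 18 tested REST corepressors and REST-repressed neuronal genes, Vgf, a neuropeptide precursor, was lower in Fmr1 KD (log2 fold change -0.74, edgeR adjusted p = 0.0105), and Vgf (log2 fold change -0.79, edgeR adjusted p = 0.0188) and Scg3 (log2 fold change -0.46, edgeR adjusted p = 0.0244) were lower in Zfp598 KD, with Rest itself at -0.07 and -0.09. Of 17 tested neuronal differentiation genes, 0 were called in either knockdown by edgeR, and 3 and 1 had an unadjusted p under 0.05.

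Notch pathway genes were followed because Hes5, Hey1 and Hey2 respond to Notch. Of 21 tested, 1 was called in Fmr1 KD (Maml3, a coactivator, log2 fold change 0.31, edgeR adjusted p = 0.0251) and 0 in Zfp598 KD by edgeR, and 5 and 2 had an unadjusted p under 0.05. Between siRNAs B and A, 8 were higher and 0 lower in Fmr1 KD, against 13.3% and 11.1% of all genes, whereas in Zfp598 KD 10 were lower (19.7% of all genes) and 0 were higher (15.6%). The siRNAs of Scramble KD differed as well, with 2 higher (Rbpj and Nrarp) and 3 lower (Notch1, Notch4 and Dll1), against 10.4% and 12.2% of all genes. Lfng, a glycosyltransferase that modifies Notch receptors, was higher with siRNA B of Fmr1 KD (log2 fold change 1.89, edgeR adjusted p = 6.21e-07) and lower with siRNA B of Zfp598 KD (log2 fold change -1.93, edgeR adjusted p = 1.23e-06). Notch3, a receptor, was likewise higher (log2 fold change 1.16, edgeR adjusted p = 5.65e-04) and lower (log2 fold change -1.73, edgeR adjusted p = 1.87e-05). Hes5 and Hey2 had 1.72 and 1.76 in the first comparison and -1.28 and -0.83 in the second, where neither passed the test, and Hey1 had -0.03 and -0.15 and passed in neither.

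Several members share exon sequence with another annotated gene, mostly on the opposite strand, and whether counting used strand is not given in the sources used here. Antisense or overlapping genes covered 32.1% of the exon bases of Hes5, 31.5% of Zic2, 21.1% of Pax6, 18.9% of Sox4, 17.8% of Tbx3, 13.0% of Sox9 and 11.5% of Gata2, so reads of these genes and of their partners may not be told apart. Tbr1, Tbx2, Hey1, Sox11, Insm1, Mycn and Rest had no such overlap, and Bhlha15 shared 2 bases.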

How the data were processed

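RNA-seq counts of 18 N2A libraries were analysed, 3 per siRNA and 6 per condition, with groups taken from the sample labels and the time of 72 h from the methods. The authors trimmed the reads with Trim Galore, used STAR for alignment to GRCm39 and counted exonic reads with featureCounts, and the deposited values are whole-number counts per gene, neither normalized nor pooled. Versions, the annotation release and the strand setting are not given in the sources used here. Levels, fold changes and tests were computed in edgeR 4.0.16 (R 4.3.3, limma 3.58.1), and DESeq2 1.42.0 served as an alternative. Symbols, exon lengths and coordinates came from GENCODE M39 for 54749 of 55414 genes (98.8%), and 135 of 137 other list genes were matched. Genes were kept with filterByExpr by condition (minimum count 10, minimum total count 15), which left 17901. CPM values use TMM library sizes, and RPKM divides CPM by merged exon length in kilobases.

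Conditions were compared with edgeR's quasi-likelihood test in a model of all 18 libraries with condition as the only term, which pools the siRNAs of a condition as the study did, although the study tested with DESeq2, and siRNAs in a model with 6 groups. Benjamini-Hochberg adjustment covered every gene tested, and a gene was called at an adjusted p under 0.05. Single members were also tested with exact permutation tests on log2(CPM + 0.5). Members named with values in every library were Tbr1, Tbx2 and Bhlha15, up to 3 members with the largest rise and 3 with the largest fall among those called in each comparison, and the 5 with the highest level in Scramble KD. Isl1 was named with its values although it falls outside this rule, chosen after its values were seen. The members and gene lists were chosen with earlier results of these data known. Alternatives covered the normalization, the low count filter, a fold criterion of 2, DESeq2, a replicate block, a block for the siRNA letter, counts summed per siRNA, the most counted feature and each library left out in turn. Leaving out Zfp598 KD A2 and A3 together and exchanging the Scramble siRNAs in the interaction were chosen after seeing the data. The start window of 1 member and the result of 1 glial marker are not reported here.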

Additional observations from a re-analysis of the deposited data

Results flagged for a closer look

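In 7 of 88 groups of 6 libraries, 1 library lay far from the others by Dixon's test, and chance flags about 1 in 20 groups. In Fmr1 KD, B1 was the high library for Tbx3 (5.33 CPM) and Sox2 (1.69 CPM). In Zfp598 KD, A3 was high for Tbx2 (57.8 CPM) and Hes5 (4.98 CPM), A1 for Hey2 (4.59 CPM) and B2 for Zic1 (5.20 CPM). In Scramble KD, A2 was high for Sox11 (104.5 CPM, 1578 counts).

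The change from Scramble KD differed between siRNA B and siRNA A for 5 members in Fmr1 KD, by an interaction test in edgeR with an adjusted p under 0.05 in the same direction whether the Scramble siRNAs were matched by letter or exchanged. Matched by letter, the log2 differences of the effect of siRNA B from that of siRNA A were 0.36 for the E protein Tcf4, 0.49 for Sox11, 0.61 for Pax6, 1.19 for Isl1 and 0.72 for Mycn. With the Scramble siRNAs exchanged they were 0.53, 0.36, 1.00, 1.04 and 1.57.

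In Zfp598 KD the effect differed in this way for 5 members. Matched by letter, the log2 differences were 0.57 for Sox11 and 0.76 for Meis2, and -0.48 for Sox4, -2.59 for Zic2 and -1.94 for Mycn. Exchanged, they were 0.44, 0.53, -1.09, -1.52 and -1.09 in that order. The letters only name the siRNAs, and both interactions contain the same difference between the Scramble KD siRNAs.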

How the results depend on the processing

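Of the counts of called members and the log2 fold changes of named members that were recomputed, none reversed its direction under the alternatives run. Zic2 and Isl1 against Scramble KD, the gene lists and the markers were not recomputed. The counts of members called in Fmr1 KD against Scramble KD, Zfp598 KD against Scramble KD and Fmr1 KD against Zfp598 KD, 2, 1 and 2, fell to 0, 0 and 0 with an added 2-fold criterion and when counts were summed per siRNA, where edgeR also called 0 of all genes. They rose to 11, 7 and 8 as the mean of both siRNAs in a model with 6 groups, where 4558 and 3312 of all genes were called against Scramble KD. DESeq2 called 5 and 3 against Scramble KD, beside 1775 and 952 of all genes, and without Zfp598 KD A2 and A3 the counts were 5 and 6, beside 1855 and 1273 of all genes. With 1 library left out they ranged from 1 to 3, from 0 to 2 and from 1 to 3. Beside them, 656 to 1425, 106 to 887 and 535 to 1083 of all genes were called. Between siRNAs B and A, the 7, 13 and 11 calls in Scramble KD, Fmr1 KD and Zfp598 KD became 1, 4 and 4 with the 2-fold criterion, 11 in Scramble KD with no filter on low counts, and ranged from 6 to 10, 9 to 16 and 10 to 15 with 1 library left out. For these alternatives the calls over all genes were not counted. Other normalizations moved none of these counts by more than 1.5 times.

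With the replicate block, 1 and 0 members were called against Scramble KD, beside 858 and 201 of all genes. Sox11 (edgeR adjusted p = 0.0674) and Insm1 (0.0627) lost their calls, and no other named member did. The replicate number does not pair the libraries by the labels. Deviations of same-numbered libraries correlated by -0.40 to 0.34 (median 0.05), over 0.1 in 16 of 45 pairs, and 12 of 18 libraries correlated best with their own number. The Sox11 call between the knockdowns was lost without Zfp598 KD A2 and A3 (0.32, edgeR adjusted p = 0.103). Sox11 in Fmr1 KD also lost its call with no filter on low counts (edgeR adjusted p = 0.0776), and the Mycn call between Scramble KD siRNAs was lost when only the 6 libraries of that condition were used (0.0665). The causes were not tested. Counts under about 30 per library limit Tbr1, Bhlha15, Eomes and, apart from Tbx3 in Fmr1 KD B1, the 13 members not tested. Low counts also limit Hes5 (2 to 38 per library), Hey2 (4 to 61) and Zic2 (4 to 52).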
